A study of Rattus norvegicus with 12 samples.

Results

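The transcripts of 7 genes that control the sterol regulatory element-binding proteins (SREBPs), lipoprotein receptor turnover and sterol carriage were followed in rat liver. They are Srebf1, Srebf2, Scap, Insig1, Insig2, Mylip and Stard4. They were chosen by gene name, so that every row of the deposited table with one of these names was taken, and the row with the highest mean over all livers stood for the gene. This gave 10 of 34391 listed transcripts, and 7 of 24355 gene names. The livers came from female rats of the inbred alcohol-preferring line iP10a, with 6 EtOH animals and 6 control animals. For 23 weeks the EtOH animals could choose freely between water and bottles of 10%, 20% and 30% ethanol (v/v). The control animals had tap water without ethanol, and food was freely available to all of them. The animals were 38 weeks old at collection, except EtOH animal 6, which was 39 weeks old. Food intake was not matched between the groups, drinking was voluntary, and a single inbred line of 1 sex was used. Levels are given as RPKM, the reads of a transcript scaled to its length and to the mapped reads of its library, which the authors computed for each liver from poly(A) RNA.

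SREBPs are transcription factors made as precursors that span the membrane of the endoplasmic reticulum. The escort protein SCAP carries the precursor to the Golgi, where proteases free the active part. When sterols are plentiful, INSIG proteins hold SCAP back and the precursor stays uncut. SREBP1, the product of Srebf1, is best known in liver for driving fatty acid synthesis genes, and SREBP2, the product of Srebf2, for driving cholesterol synthesis genes. Mylip encodes a ubiquitin ligase that marks lipoprotein receptors for breakdown and is a target of the oxysterol-sensing liver X receptors (LXR). Stard4 encodes a soluble protein that moves sterol between membranes.

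Between 2909904 and 6696469 mapped reads stood behind the RPKM values of a liver, with a median of 3672597 in control and 4834145.5 in EtOH livers, so that EtOH libraries were on the whole deeper. The read number and mapped share that the paper gives per sample come to more than this. Whether a read counted here stands for a pair of reads was not tested. All 12 livers carried hepatocyte markers, with a mean of 70350 RPKM in control and 79080 RPKM in EtOH livers for albumin (Alb), and 1 of the 7 tested was called higher in EtOH livers (Cps1). For Alb and transferrin (Tf), quantile normalization left no difference between the groups, so they could not be called. Of the 4 adipocyte markers, 3 were listed at 0 in every liver (Adipoq, Plin1 and Lep), and Fabp4 was not called. Markers of other liver cells were on the whole listed higher in EtOH livers. Over all transcripts tested, 1.13% were called higher. Of 5 Kupffer cell markers tested, 3 were called higher (Clec4f, Vsig4 and Cd163), and their sum over the list ranged from 81.1 to 125 RPKM in control and from 114 to 147 RPKM in EtOH livers. Of 7 stellate cell markers 1 was called higher (Col3a1), with sums of 24.6 to 34.5 and 31.3 to 50.7 RPKM, and of 4 endothelial markers 1 (Cdh5), with sums of 24.8 to 32.2 and 28.5 to 39.6 RPKM. None of 3 cholangiocyte and 4 blood cell markers was called by limma, and 0 had an unadjusted p below 0.05, which over all transcripts tested 15.5% had. None of the macrophage, stellate and endothelial markers tested had a mean of 0. The part of these other cells, or of depth, in the results below was not tested.

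To ask whether ethanol intake went with a change in these regulators, limma was run on log2(RPKM + 0.5) after quantile normalization of the 12 livers, and calls were made where adjusted p was below 0.05. Of the 7 main transcripts, 3 were called. Srebf1 and Srebf2 were lower in EtOH animals, and in both the 6 EtOH livers all lay below the 6 control livers in RPKM as deposited. On the quantile-normalized log2 scale the Srebf1 groups overlapped, with EtOH animal 5 at 5.927 and control animal 5 at 5.885. Insig2 was called higher, while Scap, Insig1, Mylip and Stard4 were not called. Over all 21718 transcripts tested, 526 were called (2.42%), 281 lower (1.29%) and 245 higher (1.13%), and in RPKM the groups did not overlap in 3.1%. An unadjusted p below 0.05 was found for 3364 (15.5%). Without normalization between livers 774 were called, of which 83.7% were lower in EtOH animals, against 53.4% in the main comparison. The median difference of the 7 main transcripts was −0.07 on the log2 scale, and that of all transcripts with a mean of at least 1 RPKM was 0.0078. In bulk tissue, fewer cells of a type and less RNA per cell cannot be told apart.

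**Figure D1:**
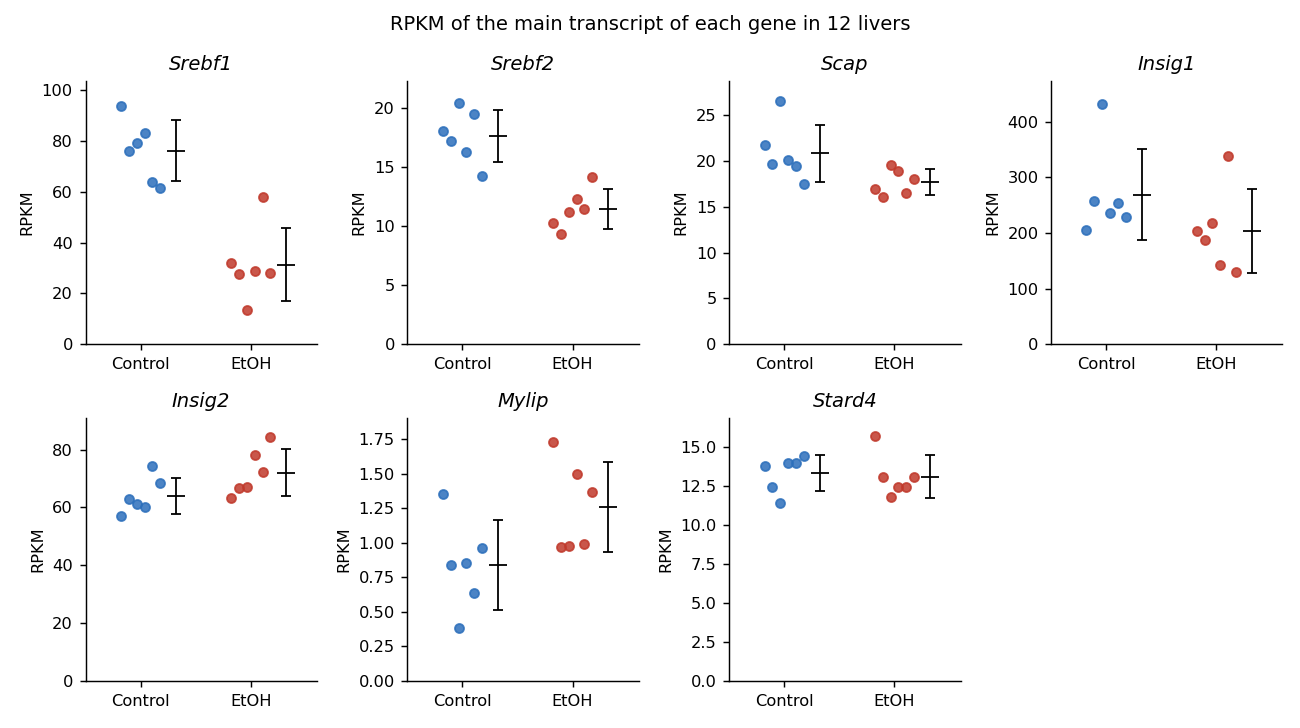
RPKM of the main transcript of each gene (vertical axes, from 0) in control (blue) and EtOH (red) livers, 1 point per animal, with the mean and SD of 6 livers beside the points. For Srebf1 and Srebf2 the 6 EtOH livers lie below the 6 control livers, and for the other 5 genes the groups overlap.

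Srebf1, listed on chromosome 10, was the regulator with the largest difference among the 7. Its main transcript (Srebf1.3, chr10:46472336-46483269 as the authors list it) stood at 93.7, 75.9, 79.3, 83.1, 63.8 and 61.5 RPKM in control animals 1 to 6. In EtOH animals 1 to 6 it stood at 31.8, 27.6, 13.6, 29.0, 57.8 and 28.1 RPKM. EtOH animal 5 came close to the lowest control liver, and the other 5 EtOH livers lay far below it. The mean was 76.2 ± 12.1 (SD, n = 6) in control and 31.3 ± 14.4 (SD, n = 6) RPKM in EtOH livers, a 2.43-fold lower mean. The log2 difference was −1.22 ± 0.26 (SE), with a 95% interval of −1.78 to −0.67 (limma, adjusted p = 0.0301). Between 303 and 988 reads stood behind each value. The spread among EtOH livers was wider than among control livers, with a coefficient of variation of 46.2% against 15.9%.

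The fall of Srebf1 kept its direction whichever liver was left out, with log2 differences from −1.42 to −1.01. The limma call was lost when control animal 1, 2, 3 or 4 was left out, or when EtOH animal 1, 2, 4 or 6 was, at adjusted p values between 0.0507 and 0.0694. Without EtOH animal 5 the adjusted p was 0.00829. The deviations of Srebf1 from its group means had a Pearson r of −0.61 with the log2 depth of the 12 libraries. Over the other 6 genes that r ranged from −0.14 to 0.41, and all are descriptions of libraries that share a lane.

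The table lists 2 more Srebf1 transcripts over a longer region, chr10:46462216-46483620, which includes the region of the main row. In listed positions, the longer region starts 10120 bases before the main row and ends 351 bases after it. The strand of these rows was not used, so these positions do not say which end holds the transcription start. Srebf1.1 stood at 33.5, 27.7, 4.72, 18.5, 22.8 and 4.22 RPKM in control and 16.2, 12.5, 4.33, 12.4, 12.3 and 1.18 RPKM in EtOH animals, so that the groups overlapped (log2 difference −0.76, 95% interval −2.20 to 0.67, limma adjusted p = 0.649). When single livers were left out, the Srebf1.1 difference ran from −1.07 to −0.29, the latter without EtOH animal 6. Srebf1.2 was listed at 0 in 3 control and 2 EtOH livers and at 1.34 to 6.13 RPKM in the rest (limma adjusted p = 0.976). The sources used here do not say how the counting divided reads between overlapping rows, which leaves the split uncertain. Summed over the 3 rows, Srebf1 came to 97.3 ± 19.9 (SD, n = 6) RPKM in control and 43.2 ± 19.1 (SD, n = 6) RPKM in EtOH livers. The lowest control liver (69.9 RPKM) then lay below the highest EtOH liver (76.2 RPKM, EtOH animal 5), and the summed transcript was still called, at −1.09 on the log2 scale (limma, adjusted p = 0.0236). The main row held 79.2% ± 8.0 (SD, n = 6) of the sum in control and 72.6% ± 10.1 (SD, n = 6) in EtOH livers.

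**Figure D2:**
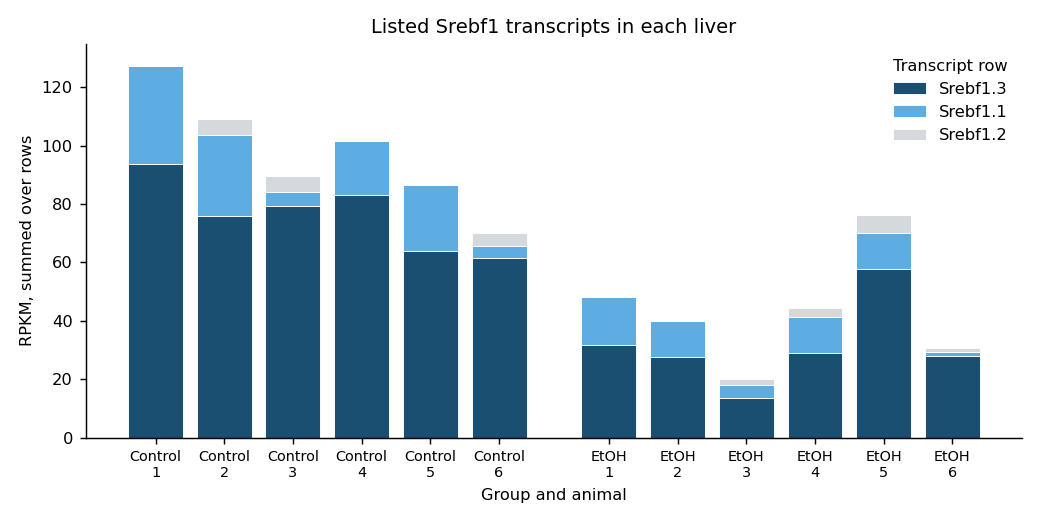
RPKM of the 3 listed Srebf1 transcripts (vertical axis, stacked from 0) in each of the 12 livers. Srebf1.3 (dark) makes up between 65.5% and 91.8% of every bar, and EtOH animal 5 is the only EtOH bar that reaches above the lowest control bar.

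Srebf2, the second SREBP gene, was lower, with far less scatter than Srebf1 among EtOH livers. The coefficient of variation of Srebf2 was 14.7% there and 12.6% among control livers. Its main transcript (Srebf2.2, chr7:120522511-120580210) stood at 18.1, 17.2, 20.5, 16.3, 19.5 and 14.3 RPKM in control animals 1 to 6, and at 10.3, 9.32, 11.2, 12.3, 11.5 and 14.2 RPKM in EtOH animals 1 to 6. The groups were separated only by the narrow step between EtOH animal 6 and control animal 6. Means were 17.7 ± 2.2 (SD, n = 6) RPKM and 11.5 ± 1.7 (SD, n = 6) RPKM, a 1.54-fold lower mean in EtOH livers. The log2 difference was −0.46 ± 0.09 (SE), with a 95% interval of −0.65 to −0.28 (limma, adjusted p = 0.0186). The call held with each liver left out in turn, at adjusted p values up to 0.0425. Srebf2.1, a shorter row, held 1 read in control animal 3 and none elsewhere.

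For the SREBP genes and the INSIG genes, the 250 bases before the transcription start in RefSeq (build GRCr8) are shown, because SREBP, NF-Y and SP1 bind near the start of the genes they control. Srebf1 has 2 annotated starts, which lie 10154 bases apart on the minus strand. The regions are chr10:45529165-45529414 (Srebf1 start 1, minus strand), chr10:45519011-45519260 (Srebf1 start 2, minus strand), chr7:115543057-115543306 (Srebf2, plus strand), chr4:8057770-8058019 (Insig1, minus strand) and chr13:35040099-35040348 (Insig2, minus strand). This build is not that of the deposited positions, and the Srebf1 starts were not matched to the listed rows. Each runs 5′ to 3′ towards the start, and capitals mark matches to 4 motifs searched on both strands. They are the sterol regulatory element core TCACNCCA, the E-box with the letters CACGTG, the CCAAT box (seen as ATTGG where it lies on the other strand) and the GC box with the letters GGGCGG, whose reverse reads CCGCCC.
Srebf1 start 1: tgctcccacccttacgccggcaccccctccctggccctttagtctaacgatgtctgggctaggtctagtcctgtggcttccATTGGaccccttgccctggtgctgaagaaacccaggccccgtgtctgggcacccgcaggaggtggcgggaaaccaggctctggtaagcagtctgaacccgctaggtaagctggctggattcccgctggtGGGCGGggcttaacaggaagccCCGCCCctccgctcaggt
Srebf1 start 2: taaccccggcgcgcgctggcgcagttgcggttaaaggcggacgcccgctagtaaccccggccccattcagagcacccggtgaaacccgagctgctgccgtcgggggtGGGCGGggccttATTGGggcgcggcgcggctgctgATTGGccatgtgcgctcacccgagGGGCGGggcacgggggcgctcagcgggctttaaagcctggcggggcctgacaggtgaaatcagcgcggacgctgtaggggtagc
Srebf2: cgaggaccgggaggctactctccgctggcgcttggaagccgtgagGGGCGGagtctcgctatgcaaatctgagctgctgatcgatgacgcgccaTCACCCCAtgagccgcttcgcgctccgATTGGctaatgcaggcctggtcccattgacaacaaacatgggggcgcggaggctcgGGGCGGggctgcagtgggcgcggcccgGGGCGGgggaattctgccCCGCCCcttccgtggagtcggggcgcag
Insig1: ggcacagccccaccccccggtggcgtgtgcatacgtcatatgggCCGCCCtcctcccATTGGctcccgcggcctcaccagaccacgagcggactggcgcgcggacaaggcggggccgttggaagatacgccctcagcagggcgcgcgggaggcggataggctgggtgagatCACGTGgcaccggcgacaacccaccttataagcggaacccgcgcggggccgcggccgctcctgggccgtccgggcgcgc
Insig2: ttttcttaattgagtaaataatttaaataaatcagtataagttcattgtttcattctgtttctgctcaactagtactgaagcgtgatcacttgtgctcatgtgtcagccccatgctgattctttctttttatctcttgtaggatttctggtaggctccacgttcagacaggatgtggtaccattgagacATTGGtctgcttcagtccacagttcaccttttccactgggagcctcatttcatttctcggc

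Among these, the sterol regulatory element core was matched in Srebf2 alone, as TCACCCCA with its first base at position −156, counted back from −1 at the last base before the start. Over all 33469 RefSeq promoters of this length, 3.24% held such a match. The CCAAT box, matched in 34.0% of all promoters, was found at both Srebf1 starts and in Srebf2, Insig1 and Insig2. The GC box, matched in 30.5%, was found in all shown but Insig2. The E-box, matched in 5.59%, was found in Insig1 at position −79, and also in Scap at position −50. The Mylip promoter held the CCAAT box and the GC box, and Stard4 was not matched to an entry. No match overlapped another, and the motifs were chosen after the sequences had been seen. A match describes these letters only and not a bound site. Only exact letters were searched, so a site that departs from them would be missed.

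Scap, which encodes the SREBP escort protein, was not called. Scap.1 (chr8:114706479-114761333) stood at 21.8, 19.7, 26.6, 20.1, 19.5 and 17.5 RPKM in control and at 17.0, 16.1, 19.6, 18.9, 16.5 and 18.1 RPKM in EtOH animals. Control animal 3 was the highest, and the groups overlapped. The log2 difference was −0.07, with a 95% interval of −0.23 to 0.10 (limma, adjusted p = 0.695). On values as deposited, with no normalization between livers, it was −0.22 and still not called.

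Insig1, the most abundant of the 7, encodes the INSIG protein whose gene is itself switched on by SREBP. Insig1.1 (chr4:2577469-2585691) stood at 205, 258, 431, 236, 254 and 229 RPKM in control animals 1 to 6. In EtOH animals 1 to 6 it stood at 204, 188, 217, 143, 339 and 129 RPKM. Control animal 3 and EtOH animal 5 stood far above the others of their groups, and 4 EtOH livers lay below the lowest control liver. Means were 269 ± 82 (SD, n = 6) RPKM and 203 ± 75 (SD, n = 6) RPKM. The log2 difference of −0.31 had a 95% interval of −0.76 to 0.14 (limma, adjusted p = 0.529), and with each liver left out it ran from −0.46 to −0.18 and was not called, at adjusted p values of at least 0.24.

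Insig2, whose product acts on SCAP in the same way but whose liver transcript is held to be suppressed by insulin, was called higher in EtOH animals. Insig2.1 (chr13:33330360-33352692) stood at 57.1, 62.8, 61.1, 60.0, 74.2 and 68.5 RPKM in control and at 63.2, 66.8, 66.9, 78.3, 72.1 and 84.5 RPKM in EtOH animals. All 6 EtOH livers were above the control median, but only EtOH animals 4 and 6 were above the highest control liver. Means were 63.95 ± 6.27 (SD, n = 6) RPKM and 71.96 ± 8.09 (SD, n = 6) RPKM, a ratio of 1.12. The log2 difference was 0.32 ± 0.08 (SE), with a 95% interval of 0.16 to 0.49 (limma, adjusted p = 0.0457). On values as deposited it was 0.17 and not called (limma, adjusted p = 0.335), and under median-ratio scaling 0.26 (adjusted p = 0.0989). Leaving out control animal 1, 2, 3 or 4 also lost the call, as did leaving out EtOH animal 2, 3, 4, 5 or 6, at adjusted p values of 0.0728 to 0.0947.

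**Figure D3:**
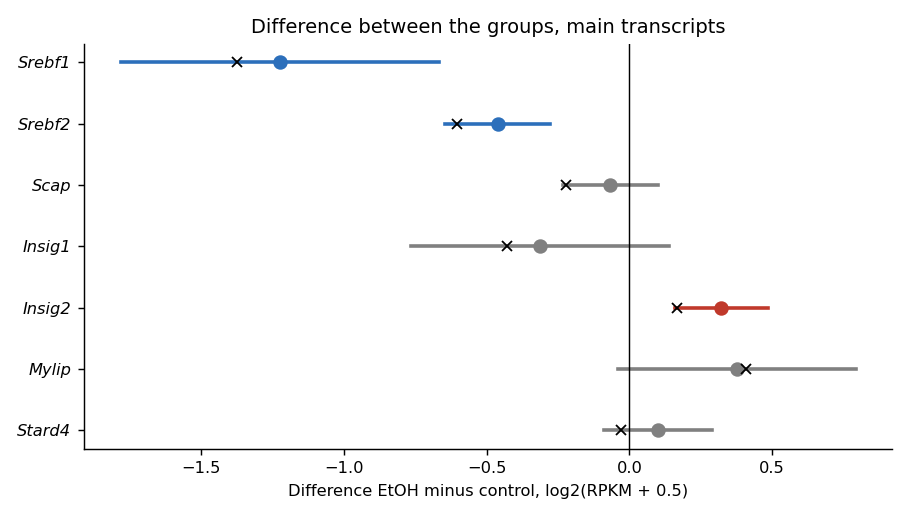
Difference between EtOH and control livers for the 7 main transcripts on the log2(RPKM + 0.5) scale (horizontal axis), after quantile normalization, with 95% intervals from limma (circles and bars, blue called lower, red called higher, grey not called) and as deposited (crosses). Srebf1 (−1.22) and Srebf2 (−0.46) lie below 0 on both scales, and Insig2 drops from 0.32 to 0.17 on the values as deposited.

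Ratios of 2 transcripts within a liver do not depend on how livers are scaled to each other, so 5 such ratios were tested by exact permutation of the 12 livers, two-sided and adjusted over the 5. None passed an adjusted p of 0.05. The ratio of Srebf1 to Srebf2 was 5.17, 4.41, 3.87, 5.09, 3.26 and 4.29 in control and 3.08, 2.96, 1.21, 2.35, 5.00 and 1.98 in EtOH animals. It lay below the lowest control liver in 5 of 6 EtOH livers, EtOH animal 5 being the exception (exact permutation p = 0.024, adjusted 0.0595). On the log2 scale the ratio differed by −0.77, and by −0.64 with the rows of each gene summed (adjusted exact permutation p = 0.126). With each liver left out in turn it differed by −0.97 to −0.56. The adjusted exact permutation p was 0.0108 without EtOH animal 5, 0.0433 without control animal 5, and 0.0866 to 0.119 without any other liver.

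INSIG and SCAP proteins bind each other, and 3 of the ratios compare their transcripts. The ratio of Insig2 to Scap was 2.63, 3.19, 2.29, 2.98, 3.80 and 3.91 in control and 3.71, 4.15, 3.42, 4.14, 4.36 and 4.68 in EtOH animals. All 6 EtOH livers lay above the control median and 4 above the highest control liver (log2 difference 0.40, exact permutation p = 0.017, adjusted 0.0595). Without control animal 5 the log2 difference was 0.46 (adjusted exact permutation p = 0.0433), and without any other liver the adjusted exact permutation p was 0.0577 to 0.119. The ratio of Insig1 to Scap had means of 12.7 ± 2.2 (SD, n = 6) in control and 11.7 ± 4.8 (SD, n = 6) in EtOH livers (exact permutation p = 0.44). For Insig1 and Insig2 together over Scap, means were 15.9 ± 2.2 (SD, n = 6) and 15.7 ± 4.8 (SD, n = 6), and the log2 difference of −0.05 (exact permutation p = 0.79) was above 0 without EtOH animal 4 (0.03) or EtOH animal 6 (0.02).

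Between the INSIG genes, the ratio of Insig2 to Insig1 was 0.279, 0.243, 0.142, 0.255, 0.292 and 0.300 in control and 0.310, 0.355, 0.309, 0.546, 0.213 and 0.655 in EtOH animals. It was above the highest control liver in 5 of 6 EtOH livers, again with EtOH animal 5 as the exception (log2 difference 0.60, exact permutation p = 0.076, adjusted 0.126). Without EtOH animal 5 the log2 difference was 0.76 (adjusted exact permutation p = 0.0108), and without any other liver the adjusted exact permutation p was 0.123 to 0.253.

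**Figure D4:**
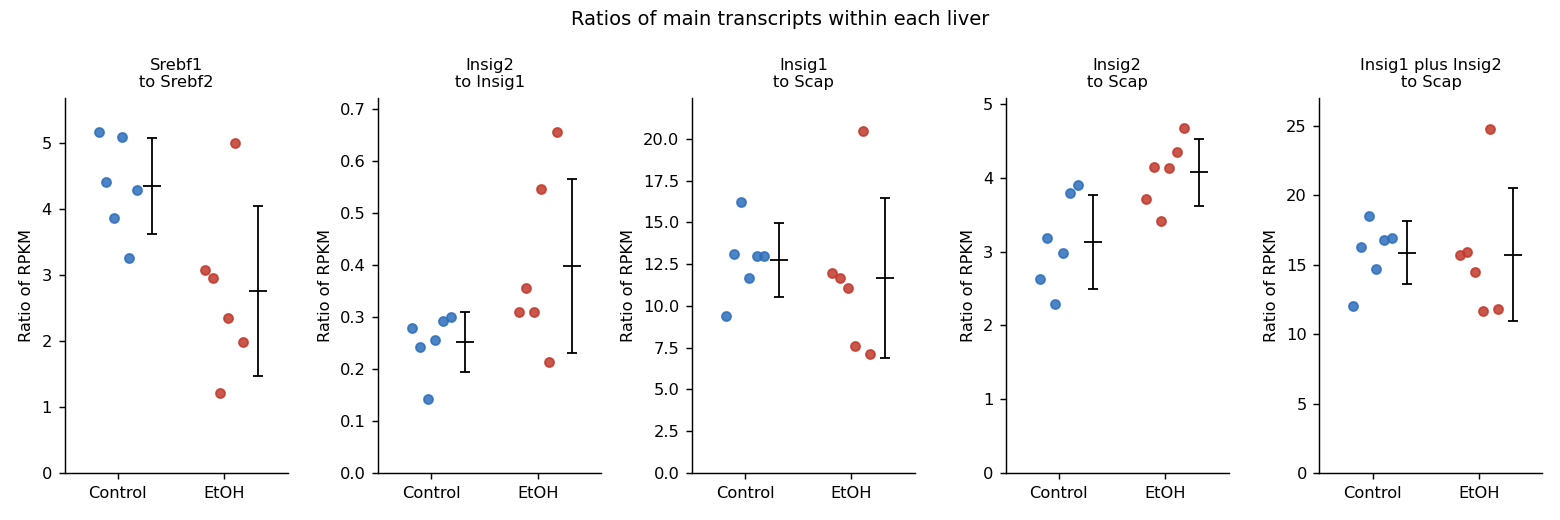
Ratios of RPKM of main transcripts within each liver (vertical axes, from 0), 1 point per animal, with the mean and SD of 6 livers beside the points, control in blue and EtOH in red. In EtOH animal 5 the ratio of Srebf1 to Srebf2 (5.00) and that of Insig1 to Scap (20.5) are the highest of the EtOH livers, and the ratio of Insig2 to Insig1 (0.213) is the lowest.

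Mylip, the ubiquitin ligase gene, was at the lower end of what these libraries measure. Mylip.1 (chr17:25308147-25329887) stood at 1.35, 0.838, 0.386, 0.853, 0.636 and 0.965 RPKM in control and at 1.73, 0.967, 0.975, 1.5, 0.99 and 1.37 RPKM in EtOH animals, which rested on 4 to 27 reads per liver. All 6 EtOH livers were above the control median, and 3 were above the highest control liver. The log2 difference of 0.38 had a 95% interval of −0.04 to 0.79 and was not called (limma, adjusted p = 0.387).

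Stard4, the sterol carrier gene, was not called, and it was the least variable of the 7 among control livers, with a coefficient of variation of 8.72%. Stard4.1 (chr18:25640558-25653958) stood at 13.8, 12.4, 11.4, 14, 14 and 14.4 RPKM in control and at 15.7, 13.1, 11.8, 12.4, 12.4 and 13.1 RPKM in EtOH animals. EtOH animal 1 was the highest of all 12, and the other 5 EtOH livers lay below the control median. The log2 difference of 0.10 had a 95% interval of −0.09 to 0.29 (limma, adjusted p = 0.649), and it was −0.03 on values as deposited.

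Per length, the levels ran from Insig1 over Srebf1, Insig2, Scap, Srebf2 and Stard4 down to Mylip in control livers. In EtOH livers Insig2 stood above Srebf1 and Stard4 above Srebf2, with the others in the same order. Srebf1 was above Insig2 in 4 of 6 control livers, at a geometric mean ratio of 1.18, and Insig2 was above Srebf1 in all 6 EtOH livers, at 2.49. Srebf2 was above Stard4 in 5 of 6 control livers (geometric mean ratio 1.32), and Stard4 above Srebf2 in 5 of 6 EtOH livers (1.15). Neighbours were compared within livers by exact sign-flip permutation, whose smallest p with 6 livers is 0.0312. None of the 12 neighbour pairs passed after adjustment over the 12, the smallest adjusted exact p being 0.0535, which 7 pairs shared. With that floor, more than 7 pairs would have to reach it for any to pass, so this outcome says little about a single pair. The pairs were also set by the means of the same livers. In those 7 pairs the order held in 6 of 6 livers, and in the other 5 it did not hold in every liver. Among the latter are Srebf1 and Insig2, Scap and Srebf2, and Srebf2 and Stard4 in control livers, and Srebf1 and Scap, and Stard4 and Srebf2 in EtOH livers.

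Within the groups the 7 genes did not rise and fall together. Over 12 livers, Pearson r between deviations from the group means ran from −0.67 (Srebf2 and Stard4) to 0.62 (Mylip and Stard4), and was −0.02 for Srebf1 and Srebf2 and −0.56 for Insig1 and Insig2. These are descriptions of 12 libraries that share a quantile normalization. The transcripts of other genes most like Srebf1, among 11086 with a mean of at least 1 RPKM, were Cfl2 (r = 0.891), Thrsp (0.887) and Sytl4 (0.872). For Srebf2 they were PQLC1_RAT (0.901), RGD1306151 (0.889) and L3mbtl2 (0.887). For Scap they were Sptan1 (0.935), Gabarap (0.902) and CPSF4_RAT (0.875), and for Insig1 they were Vat1 (0.922), Thap4 (0.890) and Rrp1 (0.876). For Insig2 they were Xylb (0.884), Khnyn (0.879) and Hrsp12 (0.869), for Mylip Psd3 (0.927), Zfp426l (0.911) and Aox4 (0.884), and for Stard4 Ptpn11 (0.911), B3gnt2 (0.901) and LOC100365068 (0.898). Of these 21, Khnyn was called (higher in EtOH animals, log2 difference 0.46, limma adjusted p = 0.0456). No test was run on these r values. They are the highest of 11086 over only 12 livers, a choice that gives high r among unrelated transcripts too.

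The other genes of the pathway were read from lists of their roles. Of 19 genes for the proteolytic and sterol-sensing machinery, which includes the Golgi proteases, the COPII coat and the ligases that turn INSIG over, none was called by limma, and 7 had an unadjusted p below 0.05, against 15.5% of all transcripts. Limma voom on recovered reads called none, a minimum mean of 1 RPKM gave 1 call, and rows summed by gene name gave 2. Their median log2 difference was −0.04. Pgrmc1, which encodes a haem-binding membrane protein, stood at 513 ± 94 (SD, n = 6) RPKM in control and 390.2 ± 28.9 (SD, n = 6) RPKM in EtOH livers (limma, adjusted p = 0.107). Faf2, whose product takes part in pulling ubiquitinated proteins out of the membrane, stood at 17.9 ± 1.6 and 13.9 ± 1.2 RPKM (SD, n = 6 each, limma adjusted p = 0.131). Without normalization between livers 3 of the 19 were called, as by the pooled test on square roots without a quantile step, and 1 was called without control animal 6.

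Of 14 genes for transcription partners of SREBP and LXR, 3 were called higher and none lower, with a median log2 difference of 0.14. Over all transcripts 1.13% were called higher. Rxra, the partner of LXR, stood at 81.9 ± 2.8 (SD, n = 6) RPKM in control and 88.0 ± 3.7 (SD, n = 6) RPKM in EtOH livers (log2 difference 0.24, limma adjusted p = 0.023). Sp1 stood at 6.87 ± 1.21 and 9.0 ± 0.8 RPKM (SD, n = 6 each, log2 difference 0.48, limma adjusted p = 0.0352). Nfya, the DNA-contacting subunit of NF-Y, stood at 0.428 ± 0.669 and 2.24 ± 0.81 RPKM on 15 and 95 reads in all (SD, n = 6 each, log2 difference 1.77, limma adjusted p = 0.0496). At most 1 of the 3 calls was left without control animal 2, 4 or 5 or EtOH animal 1 or 6, and none without EtOH animal 2, 3 or 4. Without normalization between livers 2 were called, without limma's trend 1, and by the pooled test on square roots without a quantile step none.

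Of 7 LXR target genes of sterol export, none was called by limma, and 3 had an unadjusted p below 0.05, against 15.5% of all transcripts. Limma voom called none, and rows summed by gene name gave 1 call. Abcg5, which passes sterols into bile, stood at 2.21 ± 1.37 (SD, n = 6) RPKM in control and 0.575 ± 0.427 (SD, n = 6) RPKM in EtOH livers (limma, adjusted p = 0.119). Pltp, a phospholipid transfer protein, stood at 10.7 and 12.6 RPKM (limma, adjusted p = 0.163), and Arl4c, a small GTPase, had 1 read in control and 10 in EtOH livers.

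Of 11 genes for lipoprotein uptake, 1 was called, against 2.42% of all transcripts. Lipc, the hepatic lipase gene, was higher in EtOH livers, at 150.2 ± 13.7 (SD, n = 6) RPKM in control and 181.8 ± 14.1 (SD, n = 6) RPKM in EtOH livers (log2 difference 0.42, limma adjusted p = 0.0299). That call was lost without control animal 2, 3, 4 or 5 or EtOH animal 2, 3, 4 or 6, as well as without limma's trend and by both pooled tests on square roots. Scarb1, the HDL receptor gene, stood at 26.1 and 20.4 RPKM with no overlap between groups (limma, adjusted p = 0.145), and Vldlr rested on 6 reads in control and 33 in EtOH livers.

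Of 19 genes for lysosomal and non-vesicular sterol transport, to which Stard4 is related by function, 1 was called lower and 1 higher. Among all transcripts 1.29% were called lower and 1.13% higher. Tmem97, whose product binds the lysosomal cholesterol exporter NPC1, fell from 45.1 ± 7.1 (SD, n = 6) RPKM in control to 21.6 ± 4.1 (SD, n = 6) RPKM in EtOH livers (log2 difference −0.90, limma adjusted p = 0.00407). Scarb2, a lysosomal membrane protein gene, rose from 24.1 ± 3.5 to 29.9 ± 2.7 RPKM (SD, n = 6 each, log2 difference 0.47, limma adjusted p = 0.0351). Soat2, which esterifies cholesterol, stood at 22.4 and 14.1 RPKM (limma, adjusted p = 0.0522). Only 1 gene of the list was called without control animal 2 or 4 or without EtOH animal 1, 2, 3 or 4, and likewise without limma's trend or by the pooled test on square roots of quantile values, while median-ratio scaling gave 4 calls.

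The genes that SREBPs transcribe were read as 2 lists. Of 19 sterol synthesis enzymes, 17 were called lower, none higher, and the median log2 difference was −1.03, with 13 to 17 called when a liver was left out. Over all transcripts 1.29% were called lower. Sqle (squalene epoxidase) stood at 35.2 ± 8.3 (SD, n = 6) RPKM in control and 7.41 ± 1.70 (SD, n = 6) RPKM in EtOH livers (log2 difference −2.04, limma adjusted p = 0.000207). The log2 differences were −1.94 for Hmgcs1 (the cytosolic HMG-CoA synthase), −1.88 for Idi1 (isopentenyl diphosphate isomerase) and −1.72 for Acat2 (the cytosolic acetoacetyl-CoA thiolase). They were −1.71 for Msmo1 (methylsterol monooxygenase), −1.08 for Fdft1 (squalene synthase), −1.06 for Cyp51 (lanosterol demethylase) and −1.003 for Lss (lanosterol synthase). In all 8 the 6 EtOH livers lay below the 6 control livers in RPKM, where 3.1% of all transcripts had no overlap in either direction. These 8 were named for the smallest p of this same comparison, so their separation is no further evidence. That these enzymes were lower was known when the list was drawn up, so their count is no independent evidence of direction.

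Of 13 fatty acid synthesis genes, 3 were called lower and none higher, with a median log2 difference of −0.47. The share called lower over all transcripts was 1.29%. Me1, the malic enzyme that supplies NADPH, fell from 32.6 ± 9.9 (SD, n = 6) to 10.8 ± 2.8 (SD, n = 6) RPKM (log2 difference −1.40, limma adjusted p = 0.00393). Mid1ip1, which helps acetyl-CoA carboxylase to polymerise, fell from 30.2 ± 4.5 to 12.8 ± 4.3 RPKM (SD, n = 6 each, log2 difference −1.12, limma adjusted p = 0.0202). Acss2, the acetyl-CoA synthetase of cytosol and nucleus, fell from 54.7 ± 13.5 to 27.1 ± 5.2 RPKM (SD, n = 6 each, log2 difference −0.82, limma adjusted p = 0.0151). Whether the sterol and fatty acid lists differed in their share of calls was not tested.

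**Figure D5:**
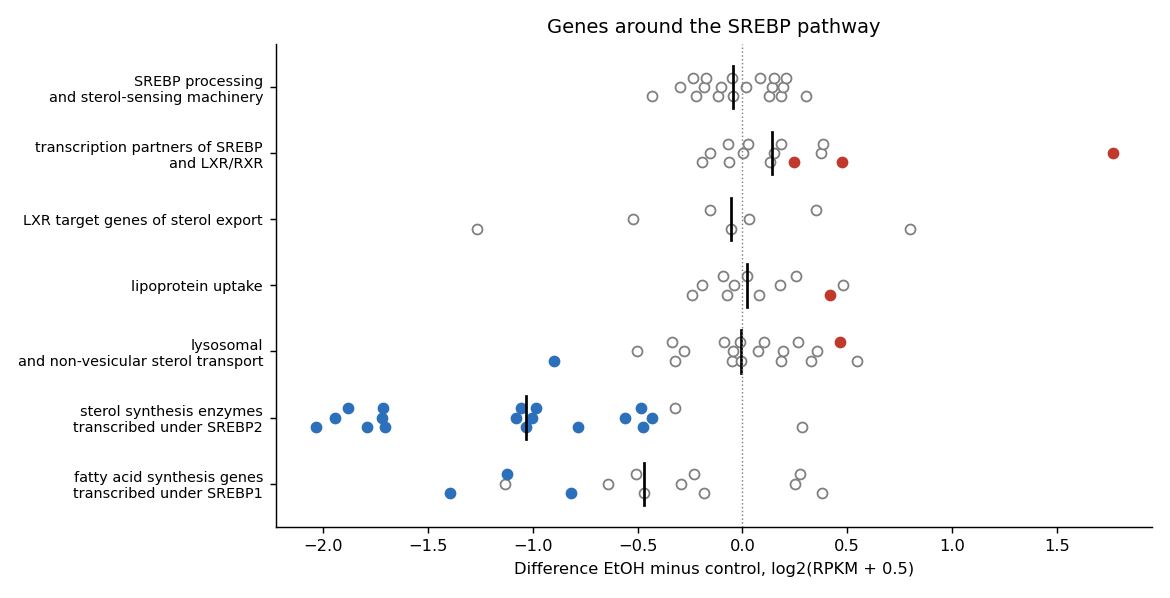
Difference between EtOH and control livers on the quantile-normalized log2(RPKM + 0.5) scale (horizontal axis) for the tested genes of 7 lists, 1 circle per gene (blue called lower, red called higher, open not called), with the median of each list as a vertical bar. Of the sterol synthesis enzymes 17 of 19 are called lower, against 3 of 13 fatty acid synthesis genes and 0 of 19 genes of the processing machinery.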

How the data were processed

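Poly(A) RNA of 12 rat livers, 1 library per animal, was barcoded, pooled and sequenced as paired ends in a single lane. CLCbio Genomics Workbench was used by the authors for mapping, and 1 RPKM value per transcript and liver was deposited. The genome build was not given in the sources used here. They also deposited score values (a fold change and a test statistic) and p-values of their own comparison, which were not used. The RPKM values fall on whole multiples of 1 read, so reads were recovered within 0.01 of a whole number for 21718 of 21718 transcripts above 0 in at least 1 liver. Recovered reads are the smallest whole numbers that fit, and for the 2052 transcripts above 0 in 1 liver only any value fits. The transcript length that followed was a whole number for 97.5% of transcripts. Between 2610238 and 6030028 reads per liver were assigned to listed transcripts. Precision is set by these depths, and reads without molecular identifiers are not independent molecules.

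The 21718 transcripts were compared with limma 3.58.1 (R 4.3.3), two-sided, on log2(RPKM + 0.5) after quantile normalization, with its mean-variance trend, with Benjamini-Hochberg adjustment over all of them; differences on this scale understate those of low transcripts. Ratios and orders of levels were tested by exact permutation (Python 3.11.15, numpy 2.4.6, pandas 2.3.3, scipy 1.17.1). The procedure was tested on simulated data. The members and lists were chosen with earlier results of these data known. All member rows are named; from each list the called genes, up to 8 by p, are named, and where under 3 were called, the smallest p values up to 3; and for each member the 3 transcripts with the most similar deviations. A list gene enters by its row with the highest mean. A gene that this rule takes is not reported here. Symbols were matched by name or by older RefSeq symbols, and Cyp51 by an alias, CP51A_RAT. RefSeq (GRCr8) also gave the promoters.

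Alternatives were pseudocounts of 0.1 and 1, no normalization, median-ratio scaling, limma on square-root values, the unmoderated pooled test of the paper's methods with and without its quantile step, minimum means of 0.1 and 1 RPKM, limma without the trend, a block for the animal number, leaving out each liver, rows summed by gene name, and limma voom on recovered reads. Animal numbers do not come from a shared litter or day in the labels.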

Additional observations from a re-analysis of the deposited data

Results flagged for a closer look

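Within groups of 6 livers, 5 of 28 sets of values held an animal whose gap to its nearest neighbour, as a share of the whole range, passed Dixon's 95% critical value, and chance gives this in about 5% of groups. Insig1 stood at 431 RPKM in control animal 3, where the next control liver had 258 RPKM. In the same liver the ratio of Insig2 to Insig1 was 0.142, the lowest of the control group. Stard4 stood at 15.7 RPKM in EtOH animal 1, above 13.1 RPKM in the next EtOH livers. In EtOH animal 5, the ratio of Insig1 to Scap was 20.5 and that of Insig1 plus Insig2 to Scap 24.8, the highest of the EtOH group in both cases. The ratios share their transcripts, so these are not separate signs.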

How the results depend on the processing

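Of the 7 main transcripts 3 were called; 1 was called by the pooled test without moderation on square roots of the quantile values, and between 1 and 3 with a liver left out, 1 of them without control animal 1, 2, 3 or 4 or EtOH animal 2, 4 or 6. Over all transcripts 526 were called, against 322 by that pooled test, 860 with a minimum mean of 1 RPKM, 977 with rows of the same gene name summed, and 212 to 656 with a liver left out (275 without control animal 2, 285 without control animal 4, and 212, 252, 295 and 298 without EtOH animals 2, 3, 4 and 5). The higher minimum tests fewer transcripts and summing changes what is tested; for the others the cause was not tested. With the animal number as a replicate block 0 of the 7 and 113 transcripts in all were called; adjusted p was 0.0939 for Srebf1, 0.108 for Srebf2 and 0.0672 for Insig2, and the list calls among transcription partners and lipoprotein uptake fell to 0. Same-numbered animals had correlations of −0.067 to 0.032, and only number 1 correlated best with its own number. These are correlations of deviations from group means, which sum to 0 within each group, so they cannot settle whether the numbers pair the animals. Whether animals of the same number shared a litter or day was not tested.

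Srebf1 missed the threshold under the pooled test on those square roots (adjusted p = 0.051). Insig2 missed it under 7 of 13 settings, with adjusted p up to 0.382. Stard4 turned to −0.028 without normalization and to −0.035 (square-root scale) under the pooled test without a quantile step, and Srebf1.2 to −0.0054 with a pseudocount of 1 and to between −0.32 and 0.45 with a liver left out. Log2 ratios with a liver left out ranged from −0.97 to −0.56 for Srebf1 to Srebf2, 0.31 to 0.47 for Insig2 to Scap, 0.43 to 0.76 for Insig2 to Insig1, and −0.19 to 0.026 for Insig1 plus Insig2 to Scap. Mylip rests on as few as 4 reads in a liver, which limits what it can show.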
